A study of Mus musculus with 8 samples.

Results

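Proteasome and immunoproteasome genes were examined in 8 spontaneous mammary tumours of mice. The members were all genes whose symbol, in the array's table or after updating through the probe accession, begins with Psma, Psmb, Psmc, Psmd, Psme, Psmf or Psmg and a digit. This gave 47 genes on 65 probes, of 18211 genes with a probe on the array. After a filter on dim probes 44 of the 47 were tested, among 13142 genes and unnamed probes. Of the 47, Psmb8, Psmb9, Psmb10, Psme1 and Psme2 form the interferon-induced subgroup of 5, and 2 members, Psmc3ip and Psme3ip1, share only the name. Others, such as Psmd9 and the Psmg genes, are assembly chaperones and not subunits of the finished particle. The 4 imiquimod tumours came from mice treated with imiquimod cream on the skin for 1 cycle, and the 4 control tumours from mice given control cream. All mice were of the strain FVB/N-TgN (MMTVneu)-202Mul, so tumours of both groups carry a neu transgene, driven by the mammary tumour virus promoter that the strain name gives. Imiquimod, a small molecule, activates TLR7, a receptor of innate immunity. Neither the age of the mice nor the number of mice behind each set of 4 tumours is given in the labels, so each p-value reflects sample-to-sample spread alone, some of which may be technical.

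The proteasome is the barrel-shaped protease that degrades proteins tagged with ubiquitin. Its core particle is a stack of alpha rings and beta rings, and the catalytic sites sit on the beta subunits Psmb5, Psmb6 and Psmb7. Interferons, above all interferon gamma, induce Psmb8, Psmb9 and Psmb10, which replace Psmb5, Psmb6 and Psmb7 in newly assembled particles and form the immunoproteasome, whose peptides suit presentation on MHC class I. Leukocytes express these inducible subunits without stimulation. Psme1 and Psme2 form the PA28 activator ring, which interferon gamma also induces.

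The data are log2 signals of a bead array, 1 probe per gene (the brightest on average), and fold changes are differences on that log2 scale, imiquimod minus control, with their standard error (SE). The arrays had medians of 6.82, and their lowest values lay between 5.73 and 5.81, so absent genes still read well above 0 and fold changes of dim genes are compressed. Probes with a mean under 6.64 were left out. Luminal keratins marked the tissue as labelled, with Krt8 at 11.21 ± 0.19 in imiquimod tumours and 11.26 ± 0.05 in control tumours (mean ± SD, n = 4 each) and Krt18 at 11.67 ± 0.10 and 11.87 ± 0.10. The epithelial marker Epcam was dim (6.74 ± 0.18 and 6.82 ± 0.10), and Krt19 and Erbb3 lay under the filter. In such bulk tumour RNA, fewer cells of a type and less RNA per cell cannot be told apart.

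Among the 44 tested members, Psmb10 and Psme1 rose with imiquimod and Psmg2 fell (limma, adjusted p below 0.05 over all 13142 units, of which 4.33% were called in either direction). The 2 higher calls are 4.55% of the members, against 2.13% of all units called higher, and the 1 lower call is 2.27%, against 2.2% of all units called lower. The groups did not overlap in 8 members in the higher direction (18.2%) and in 1 in the lower direction (2.27%), where 5.52% and 7.11% of all units did so. The median log2 fold change was 0.07 over the members and -0.02 over all units. Without the interferon-induced subgroup, its copy Psme2b and the 2 genes that share only the name, 36 tested members remained, of which none rose and 1 fell. Their median was 0.04, and 9 of the 36 had an unadjusted p below 0.05 (25%, against 20.5% of all units).

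Psmb10, the inducible subunit that replaces Psmb7, changed most. Its log2 signal was 10.94, 10.30, 10.03 and 10.34 in imiquimod tumours 1 to 4, against 9.48, 8.60, 8.89 and 9.33 in control tumours 1 to 4. Every imiquimod tumour lay above every control tumour. The log2 fold change was 1.33 (SE 0.235, adjusted p = 0.0189), or 2.51-fold, and a second probe gave 1.17. The call was lost without control 3 (1.27, adjusted p = 0.0508).

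Psmb9, which replaces Psmb6, read 11.38, 10.87, 10.29 and 11.00 in imiquimod tumours 1 to 4, against 11.29, 8.91, 9.35 and 10.16 in the control tumours. Control 1 was higher than imiquimod tumours 2, 3 and 4, so the groups overlapped. The log2 fold change of 0.96 had a 95% interval from -0.11 to 2.02 and did not pass (adjusted p = 0.295). It was 1.41 without control 1 (adjusted p = 0.0748) and 0.62 without control 2 (adjusted p = 0.4715), the ends of the range with 1 tumour left out.

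Psmb8, which replaces Psmb5, followed a similar order of tumours. Its log2 signal was 10.25, 9.78, 9.26 and 9.60 in imiquimod tumours 1 to 4, against 10.05, 8.10, 8.66 and 8.90 in control tumours 1 to 4. Control 1 again lay within the imiquimod range, and the other 3 controls lay under it. The log2 fold change of 0.79 did not pass (95% interval -0.07 to 1.65, adjusted p = 0.283), and with 1 tumour left out it ranged from 0.52 without control 2 (adjusted p = 0.4551) to 1.16 without control 1 (adjusted p = 0.0628).

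The activator subunit Psme1 was the second member that rose. It read 12.09, 11.64, 11.42 and 11.52 in imiquimod tumours 1 to 4 and 11.12, 10.70, 10.78 and 11.10 in the control tumours, with no overlap. The log2 fold change was 0.74 (SE 0.16, adjusted p = 0.0368), and a second probe gave 0.66. This call was lost without any 1 of the 4 controls or without imiquimod 2 or 4, with adjusted p up to 0.0831, while the log2 fold change stayed between 0.60 and 0.82 with each tumour left out in turn.

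Psme2, the partner of Psme1 in the same ring, differed little. Its values were 9.08, 8.78, 8.55 and 8.65 in imiquimod tumours 1 to 4, against 8.78, 8.54, 8.52 and 8.77 in control tumours. The groups overlapped, and the log2 fold change of 0.11 did not pass (95% interval -0.17 to 0.39, adjusted p = 0.667). Psme2b is annotated as a separate gene with a sequence very like that of Psme2, so whether each probe reads its own transcript is uncertain. The Psme2b probe read 9.58, 9.51, 9.71 and 9.64 with imiquimod and 9.45, 8.81, 8.98 and 9.10 in controls. These groups did not overlap, and the log2 fold change of 0.53 (SE 0.13) lay just over the threshold (adjusted p = 0.0571). It passed without control 1 (0.65, adjusted p = 0.0144) and missed the threshold with any of the other 7 tumours left out, with adjusted p up to 0.1436 and the lowest log2 fold change, 0.43, without control 2.

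**Figure D1:**
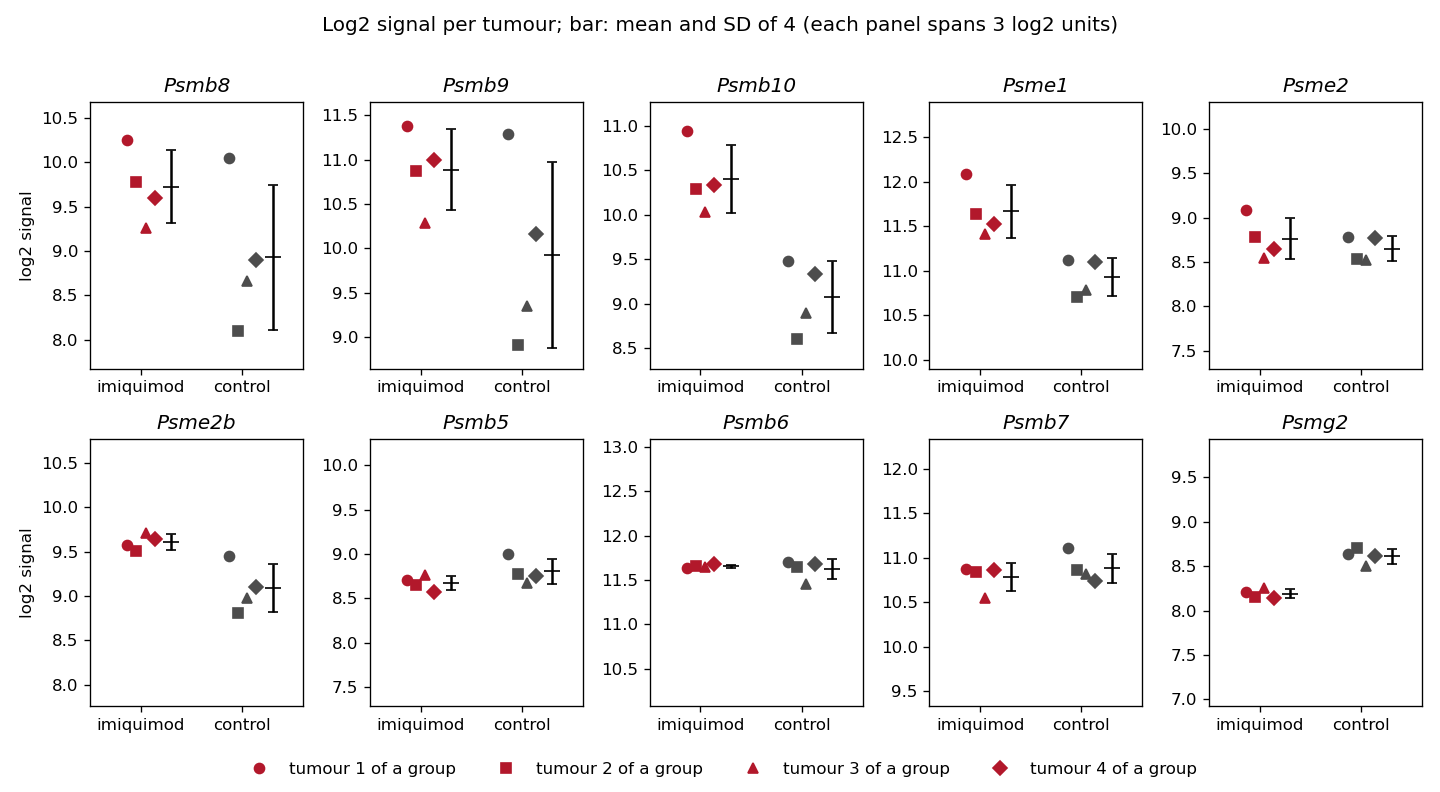
Log2 signal (vertical axis) of 10 member genes in the imiquimod and control tumours; each point is 1 tumour, its shape gives the tumour's number within its group, and bars show the mean and SD of 4. Psmb10 and Psme1 are higher in all imiquimod tumours, control 1 reaches the imiquimod range for Psmb8 and Psmb9, and Psmb5, Psmb6 and Psmb7 overlap between groups.

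The tumours kept much the same order within the subgroup. On the brightest probes imiquimod 1 had the highest value of all 8 tumours for each of the 5 genes, and imiquimod 3 the lowest of the 4 imiquimod tumours for each. Control 1 was the highest control for all 5, and control 2 was the lowest tumour for 4 of them, with Psme2 as the exception. On the second Psmb10 probe imiquimod 2 was the lowest imiquimod tumour (10.03, against 10.13 in imiquimod 3) and control 4 the highest control (9.37, against 9.33 in control 1). On the second Psme1 probe imiquimod 4 was the lowest imiquimod tumour (10.72, against 10.73 in imiquimod 3). As a mean over the 5 genes, relative to the control mean, imiquimod tumours 1 to 4 stood at 1.25, 0.77, 0.41 and 0.72 and control tumours 1 to 4 at 0.64, -0.53, -0.26 and 0.15 on the log2 scale. Control 1 thus stood above imiquimod 3. The same mean was taken over 30 genes listed as constitutive core and regulatory subunits, with assembly chaperones such as Psmd9 among them. It ran from 0.05 to 0.08 in imiquimod tumours and from -0.06 to 0.11 in control tumours, the highest being control 1.

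Markers of leukocytes also differed between the groups. Of 14 tested macrophage markers 7 rose (50%, against 2.13% of all units called higher) and none fell. Their log2 fold changes were uneven, from 0.03 (Msr1) to 2.55 (Cd14). Those not called lay between 0.03 and 0.87 (Fcgr3), with Csf1r at 0.06 and Lyz2 at 0.21. The summed linear signal of the 14 was 6833 to 13914 with imiquimod and 3548 to 5218 in controls. Of 8 listed pan-leukocyte markers 6 were tested, with sums of 3648 to 7432 and 2621 to 3681. Of these 2 rose, Rac2 and Coro1a (33.3%, against 2.13% of all units called higher), and 1 lay below 0 (Lcp1, -0.19, not called). Among 4 tested B cell markers 2 rose (50%), with sums of 1132 to 2488 and 439 to 518, while Cd79a and Blk lay under the filter. None of 13 T and NK cell markers passed, with 1 at an unadjusted p below 0.05 (sums of 1643 to 2101 and 1571 to 1723), and Ncr1 lay under the filter, as did the macrophage marker Itgam. The order of tumours differed among these lists. Imiquimod 1, first in the interferon-induced subgroup, had a mean pan-leukocyte difference of 0.48 and a macrophage one of 0.63, against 0.75 and 1.37 in imiquimod 3. Control 1, the control with the highest subgroup level, had the lowest pan-leukocyte mean of all 8 tumours (-0.12). The B cell mean stood at 1.11, 0.93, 0.86 and 1.37 in imiquimod tumours 1 to 4, against 0.0985, -0.12, -0.08 and 0.0992 in control tumours 1 to 4: imiquimod 3 was the lowest imiquimod tumour and control 2 the lowest control, as in the subgroup, while imiquimod 4 was highest for B cell markers. The part of leukocytes in the rise of Psmb10 and Psme1 was not tested.

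Other tissue markers were uneven among the imiquimod tumours. Skeletal muscle markers, none of whose 11 tested members passed and 1 of which had an unadjusted p below 0.05, summed to 1183 to 9285 with imiquimod and 1094 to 2167 in controls, with mean differences of 1.92 and 1.77 in imiquimod 3 and 4. Fibroblast and matrix markers (1 of 8 rose, sums of 1161 to 3768 and 901 to 1226), adipocyte markers (none of 6, also unadjusted, 726 to 3062 and 676 to 1264), keratinocyte markers (1 of 4 rose, 564 to 1514 and 472 to 544) and luminal markers (1 of 11 rose, 10571 to 14168 and 11947 to 14963) completed the set. The keratinocyte mean difference was 1.41 in imiquimod 1, the tumour highest in the subgroup, and 0.50, 0.25 and 0.18 in imiquimod 2 to 4. The bearing of this on the subgroup was not tested. Without imiquimod 3 and 4 the log2 fold change was 1.54 for Psmb10, 0.94 for Psme1 and -0.43 for Psmg2, and with 2 imiquimod tumours left none of the 3 passed (adjusted p = 0.0722, 0.0751 and 0.105).

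**Figure D2:**
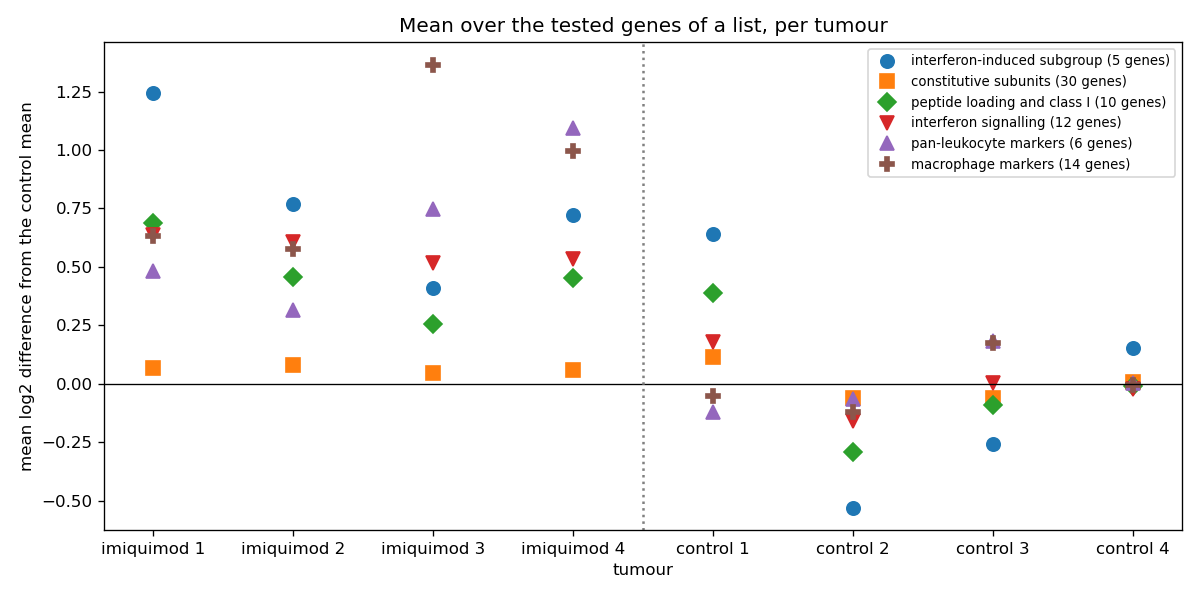
Mean log2 difference from the control mean (vertical axis) over the tested genes of 6 lists, for each tumour (horizontal axis, imiquimod tumours on the left of the dotted line). The interferon-induced subgroup ranges from 0.41 to 1.25 with imiquimod and from -0.53 to 0.64 in controls. The 30 genes listed as constitutive subunits stay within 0.11 of the control mean.

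The catalytic subunits that the inducible ones replace did not pass. Psmb5, the chymotrypsin-like site of the constitutive core, read 8.71, 8.66, 8.77 and 8.58 with imiquimod and 9.005, 8.78, 8.68 and 8.76 in controls, a log2 fold change of -0.13 (95% interval -0.32 to 0.07, adjusted p = 0.449). Psmb6, the caspase-like site, had 11.63 to 11.68 in imiquimod tumours and 11.46 to 11.71 in control tumours, with a log2 fold change of 0.03 (95% interval -0.13 to 0.19). Psmb7, the trypsin-like site, had 10.55 to 10.87 and 10.74 to 11.11, with -0.10 (95% interval -0.34 to 0.14), and its second probe gave 0.20. All 3 pairs of groups overlapped.

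Whether an inducible subunit moved apart from its counterpart was tested as the difference between the 2 probes within each array. Only the change of this difference between groups is read, since signals of separate probes are not on a common scale. Psmb10 minus Psmb7 was 0.06, -0.55, -0.52 and -0.52 in imiquimod tumours 1 to 4, against -1.64, -2.27, -1.92 and -1.41 in control tumours. The groups did not overlap and differed by 1.43, with an exact two-sided permutation p of 0.0286, the smallest that 4 against 4 tumours can give, and 0.0857 when adjusted over the 3 pairs. Psmb8 minus Psmb5 was higher by 0.92 in imiquimod tumours (exact permutation p = 0.0857, adjusted 0.129), and Psmb9 minus Psmb6 by 0.93 (exact permutation p = 0.171, adjusted 0.171). In both pairs control 1 lay within the imiquimod range. None of the 3 differences passed after adjustment, and this design could not have given an adjusted value under 0.0286.

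**Figure D3:**
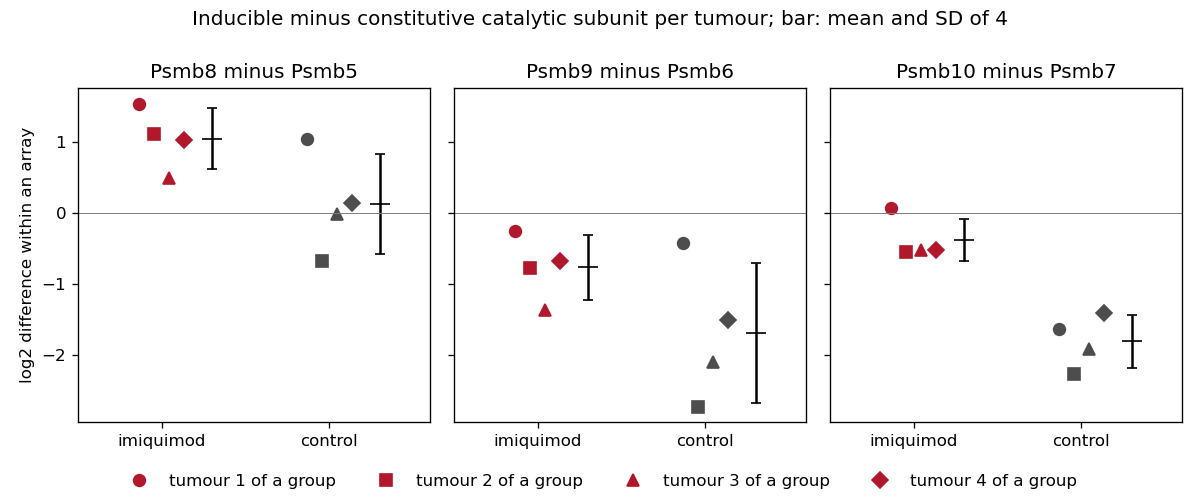
Log2 signal of an inducible catalytic subunit minus that of its constitutive counterpart (vertical axis) in each imiquimod and control tumour, with mean and SD of 4. Psmb10 minus Psmb7 separates the groups by 1.43, while control 1 overlaps the imiquimod tumours in the other 2 pairs.

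The promoters of the 2 members of the subgroup that rose and of Psmb8 are shown because interferon signals through short elements near gene starts. Of 47 members 40 had a window in RefSeq (build GRCm38.p6), from 250 bases before to 50 after an annotated start. Both strands were searched for the core of the interferon-stimulated response element, GAAANNGAA, and for the gamma-activated site, TTCNNNGAA. Matches are in capitals below, in the direction of the gene. The Psmb10 window is chr8:105938343-105938642 on the minus strand, that of Psme1 is chr14:55578244-55578543 on the plus strand, and that of Psmb8 is chr17:34197945-34198244 on the plus strand.
Psmb10: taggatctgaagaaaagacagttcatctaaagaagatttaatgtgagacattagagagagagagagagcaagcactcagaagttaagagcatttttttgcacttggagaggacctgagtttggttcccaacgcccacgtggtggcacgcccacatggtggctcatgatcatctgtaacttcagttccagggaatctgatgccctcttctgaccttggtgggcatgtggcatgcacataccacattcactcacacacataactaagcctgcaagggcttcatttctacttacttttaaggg
Psme1: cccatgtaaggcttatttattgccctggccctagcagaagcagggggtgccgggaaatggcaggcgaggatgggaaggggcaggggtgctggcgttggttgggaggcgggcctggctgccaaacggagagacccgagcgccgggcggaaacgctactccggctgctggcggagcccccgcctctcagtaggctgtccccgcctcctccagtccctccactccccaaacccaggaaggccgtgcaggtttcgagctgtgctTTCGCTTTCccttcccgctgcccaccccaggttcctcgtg
Psmb8: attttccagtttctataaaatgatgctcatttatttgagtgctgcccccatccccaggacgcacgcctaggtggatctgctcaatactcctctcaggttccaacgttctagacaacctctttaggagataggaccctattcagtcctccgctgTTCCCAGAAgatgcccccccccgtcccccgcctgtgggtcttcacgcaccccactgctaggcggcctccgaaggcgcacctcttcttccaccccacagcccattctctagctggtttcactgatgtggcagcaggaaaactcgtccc

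The Psme1 window held 1 core of the interferon-stimulated response element, read on the opposite strand and beginning 10 bases after the start, and the Psmb8 window held 1 gamma-activated site whose first base lies at -97 from the start. The windows of Psmb9, Psmb10 and Psme2 held neither motif. Among tested genes with a window, 8.9% held the response element core and 8.8% the gamma-activated site, and among the 40 members 6 (15%) and 3 (7.5%) did. The response element core was in 1 of the 5 subgroup genes and in 5 of 27 genes listed as constitutive core and regulatory subunits. The gamma-activated site was in 1 of the 5 and in 1 of the 27. No matches overlapped in the members' windows. The matches describe these letters only.

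In the RefSeq order of protein-coding genes on mouse chromosome 17, Psmb9, Tap1, Psmb8 and Tap2 follow one another, within the MHC region. Tap1 and Tap2 form the transporter that carries proteasome products into the endoplasmic reticulum. Tap2 rose, with 11.02, 11.20, 10.88 and 10.88 in imiquimod tumours, against 10.35, 10.17, 10.15 and 10.15 in control tumours (log2 fold change 0.79, SE 0.09, adjusted p = 0.0041). Tap1 read 8.49, 8.34, 7.85 and 7.96 with imiquimod and 8.70, 7.24, 7.43 and 7.58 in controls, so that control 1 was the highest of all 8 tumours, and at 0.42 its log2 fold change missed the threshold (adjusted p = 0.4875). The 4 neighbours therefore had log2 fold changes of 0.96, 0.42, 0.79 and 0.79 in their order, and 1 of them passed. On chromosome 14 Psme1 and Psme2 are separated by 1 gene, Emc9, which had -0.16.

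None of the 30 tested genes listed as constitutive core and regulatory subunits passed in limma, and assembly chaperones such as Psmd9 are among the 30. An unadjusted p below 0.05 was found in 6 (20%, against 20.5% of all units), 5 of them higher and 1, Psmd9, lower. The groups were apart in the higher direction in 5 of the 30 (16.7%, against 5.52% of all units) and in the lower direction in none (against 7.11%). The alpha ring, which gates the core, had 6 tested subunits with log2 fold changes from 0.03 (Psma6) to 0.32 (Psma3), all above 0. Psma3 read 11.03, 11.10, 11.46 and 11.24 in imiquimod tumours and 10.93, 10.97, 10.83 and 10.83 in control tumours, without overlap (adjusted p = 0.11). A second, dim Psma3 probe gave -0.06. The 7 tested constitutive beta subunits ranged from -0.13 (Psmb5) to 0.28 (Psmb2). In Psmb2 the spread came from control 2, at 10.17, while the other controls had 10.97 to 11.19 and the imiquimod tumours 11.11 to 11.17.

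The regulatory particle recognises ubiquitin chains, unfolds the substrate and feeds it into the core. Its ATPase ring had 4 tested subunits between 0.00 (Psmc2) and 0.40 (Psmc5). Psmc5 read 10.03, 10.60, 10.24 and 10.12 with imiquimod, against 9.97, 9.72, 9.93 and 9.79 in controls, with no overlap and an adjusted p of 0.115. Its second probe gave 0.35. Among 13 tested non-ATPase members the range was -0.27 to 0.405, with 5 above 0 and 8 below.

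At the upper end stood Psmd4, a ubiquitin receptor of the particle. It read 11.01, 11.33, 11.37 and 10.98 in imiquimod tumours, against 10.94, 10.79, 10.56 and 10.77 in control tumours. No values overlapped, although imiquimod 4 lay close to control 1, and the log2 fold change of 0.405 did not pass (95% interval 0.13 to 0.68, adjusted p = 0.0955). Psmd7, a scaffold for the deubiquitinase, had 10.62 to 10.76 and 10.29 to 10.504, with a log2 fold change of 0.26 (adjusted p = 0.0762) and 0.35 on its second probe. Psma4, of the alpha ring, also had groups apart (log2 fold change 0.22, adjusted p = 0.163).

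At the lower end stood Psmd14, the deubiquitinase that removes the chain before degradation. It read 8.03, 7.72, 8.11 and 8.47 with imiquimod and 8.51, 8.19, 8.31 and 8.38 in controls. The groups overlapped and the log2 fold change of -0.27 did not pass (95% interval -0.60 to 0.07, adjusted p = 0.36). Psmd9, a chaperone for assembly of the ATPase ring, had -0.18 (adjusted p = 0.1895) and 0.01 on a second probe, at signals of 6.99 to 7.28 on the brighter probe, near the array median.

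**Figure D4:**
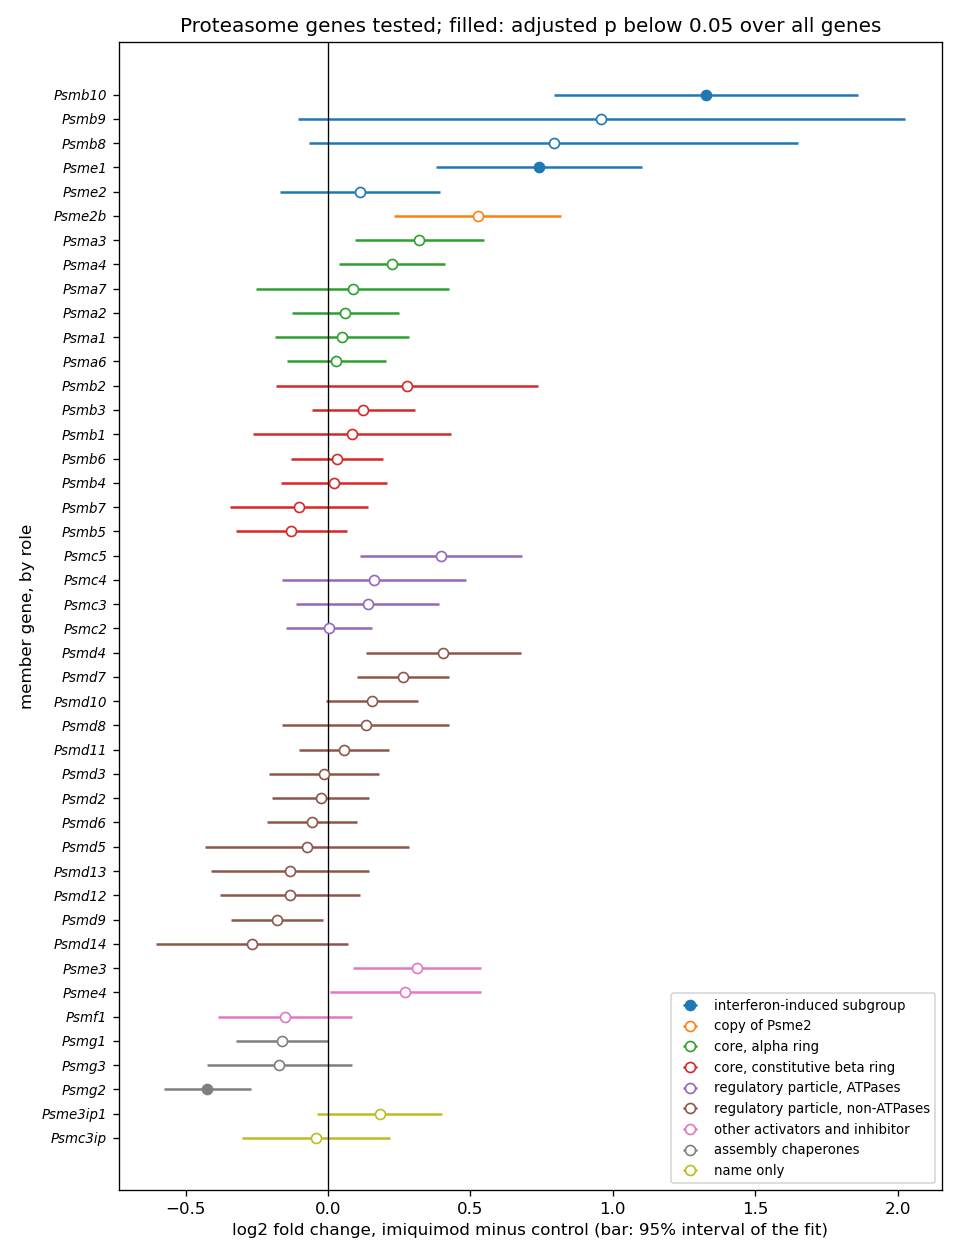
Log2 fold change of imiquimod minus control (horizontal axis) with its 95% interval for the 44 tested members, grouped and coloured by role. Filled points are Psmb10 and Psme1 above 0 and Psmg2 below 0. The genes listed as constitutive subunits lie between -0.27 and 0.405.

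Psmg2 was the single member called lower. It encodes a chaperone that pairs with Psmg1 to start assembly of the alpha ring. Its log2 signal was 8.21, 8.16, 8.25 and 8.14 in imiquimod tumours 1 to 4, against 8.63, 8.71, 8.50 and 8.61 in control tumours. Both groups were tight, with an SD of 0.05 and 0.08, and did not overlap. The log2 fold change was -0.42 (SE 0.07, adjusted p = 0.0124), and with each tumour left out in turn it stayed between -0.46 and -0.39 with adjusted p from 0.018 to 0.0388. Its partner Psmg1 had 8.14 to 8.39 with imiquimod and 8.37 to 8.48 in controls, with -0.16 as its log2 fold change (95% interval -0.32 to 0.00, adjusted p = 0.245). Psmg3, a further chaperone of ring assembly, had -0.17 (adjusted p = 0.441).

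Other activators and the inhibitor did not pass. Psme3 forms the nuclear activator ring PA28 gamma and read 8.29, 8.45, 8.34 and 8.50 in imiquimod tumours and 8.29, 8.17, 7.92 and 7.96 in control tumours. Control 1 alone overlapped the imiquimod tumours, and the log2 fold change was 0.31 (adjusted p = 0.114). Psme4, the large monomeric activator PA200, had 0.27 (adjusted p = 0.233), with 0.03 on a dim second probe. Psmf1, an inhibitor of the core in vitro, had -0.15 (adjusted p = 0.46). Of the 2 genes that share only the name, Psmc3ip, a partner in meiotic recombination, had -0.04, and Psme3ip1, which binds the Psme3 ring, had 0.18, and neither passed.

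Probes of the same gene did not always point the same way. Of 13 members with 2 or more kept probes, 6 had probes of both signs: Psma3, Psmb2, Psmb7, Psmd2, Psmd9 and Psmd13. None of these 6 was called. In the other 7, Psmb10, Psmc5, Psmd7, Psmd10, Psmd11, Psme1 and Psme4, all kept probes lay above 0. Psma5, Psmb11 (the subunit of thymic cortical epithelium) and Psmc6 were left out as dim, with means of 6.47, 6.56 and 6.52 over the 8 arrays and differences of imiquimod minus control of -0.08, 0.00 and 0.03 in log2 signal. Psma8, Psmc1, Psmd1 and Psmg4 had no probe under the naming used here and so were not analysed.

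A list of 16 tested proteasome partners gave no call, with 4 at an unadjusted p below 0.05. The list is not limited to genes outside the particle. Among its kinds are an assembly factor, ubiquitin shuttles, associated deubiquitinases and transcription factors of proteasome genes. Nfe2l2 and Nfe2l1, transcription factors of the latter kind, differed by 0.34 in log2 signal (adjusted p = 0.0687) and by 0.53 (adjusted p = 0.0832), with groups apart in each case. The median of the 16 was 0.02. Among 6 tested ubiquitin and E1 enzyme genes 1 rose and 1 fell. Uba1, the main E1 enzyme that activates ubiquitin, read 9.29, 9.25, 9.28 and 9.48 with imiquimod, against 10.11, 9.90, 9.85 and 9.69 in controls (log2 fold change -0.56, SE 0.10, adjusted p = 0.0189). Uba7, the E1 enzyme of the interferon-induced modifier Isg15, read 10.96, 10.60, 10.57 and 10.31 with imiquimod, against 9.78, 8.01, 9.12 and 9.08 in controls (log2 fold change 1.61, SE 0.32, adjusted p = 0.0299). The groups were apart for both, in opposite directions.

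Of 12 tested genes of interferon signalling tied to the subgroup, 6 rose (50%, against 2.13% of all units called higher) and none fell. The median of the 12 was 0.63. Irf1, the factor that acts on several subgroup promoters, rose by 0.69 (adjusted p = 0.0444), and Irf9, Stat2 and Ifngr1 rose by 0.96, 0.87 and 0.64. Ubd, a ubiquitin-like tag that sends proteins straight to the proteasome, rose by 0.62 (SE 0.09, adjusted p = 0.0103), at signals of 7.20 to 7.56 with imiquimod and 6.67 to 6.90 in controls. Of 10 tested genes of peptide loading and class I, 1 rose, Tap2, and none fell, with a median of 0.41. Pdia3, a chaperone of the loading complex, had the next smallest p (log2 fold change 0.41, adjusted p = 0.0782). The list means had the same highest and lowest tumour in each group as the subgroup. For interferon signalling imiquimod 1 stood at 0.64, imiquimod 3 at 0.52, control 1 at 0.18 and control 2 at -0.16. For peptide loading and class I these 4 tumours stood at 0.69, 0.25, 0.39 and -0.29.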

How the data were processed

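Total RNA of the 8 tumours was labelled with biotin and hybridised to Illumina bead arrays, per the labels' protocols. The authors deposited log2 signals, 1 column per sample, with nearly equal distributions on all arrays. The tool affy is listed in the submitters' processing notes without a version, and background correction is not given in the sources used here. The top log2 value was 15.07 on all imiquimod arrays and 14.86 on all control arrays, so processing of each group apart cannot be told apart from treatment. Only probe accessions and symbols were taken from the non-normalized table, since the 16 value columns in it are numbered in a way that could not be tied to the samples' labels. No pair of arrays was identical, and precision is limited by having 4 arrays a group.

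The 24341 probes took their gene names from the mouse RefSeq table (GRCm38.p6): 20038 by accession, ignoring versions, 1620 by symbol and 1736 by synonym. The array's own symbol was used for 692, and 255 stayed unnamed. The 8114 probes dimmest by mean signal (under 6.64) were dropped, leaving 16227, and the brightest probe stood for each gene. Groups were compared with limma 3.58.1 in R 4.3.3 (lmFit, eBayes, two-sided, no covariates), with Benjamini-Hochberg adjustment over all 13142 units and a threshold of 0.05. Differences within pairs of subunits were compared by an exact permutation test over tumours. The fit was tested on simulated data. Members, lists and named genes were chosen with earlier results of these data known. The named genes are the subgroup, its 3 counterparts, all called members, the 4 highest and 4 lowest of the rest, members with other roles and, of partner lists, those called and the 2 with the smallest p. Any other gene was named after its values were seen. Some genes of these lists are counted but not reported by name here.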

Additional observations from a re-analysis of the deposited data

Results flagged for a closer look

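Among the 48 sets of 4 tumours examined (named members and subunit differences, each group apart), 3 held a tumour far from the other 3 of its group, where chance flags about 1 in 20. Psmb7 was low in imiquimod 3, at 10.55 against 10.84 to 10.87 in the other imiquimod tumours. Psme4 was high in control 1, at 8.60 against 8.39 to 8.42 in the other controls. The difference of Psmb10 minus Psmb7 was high in imiquimod 1, at 0.0648 against -0.55 to -0.52 in the other imiquimod tumours.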

How the results depend on the processing

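Of 18 alternatives, all kept the sign of the 3 called members, and rescaling the arrays, the filters and the intensity trend left the same 3 called. Of 569 calls over all genes (280 higher, 289 lower), leaving out 1 tumour gave 278 to 911 (145 to 454 higher, 123 to 457 lower), a threshold of 0.1 gave 1189 (531 higher, 658 lower), and leaving out imiquimod 3 and 4 together gave 112 (71 higher, 41 lower). The 2 members called higher became 1 with the mean of kept probes (Psme1, adjusted p = 0.0544), 5 at the threshold of 0.1, 0 without imiquimod 3 and 4, and 0 to 2 with 1 tumour left out. Without imiquimod 3 and 4, 0 members were lower, and with 1 tumour left out 1 stayed lower. The labels do not say whether tumour numbers pair the tumours, and correlations over 4 arrays a group cannot decide it. For same-numbered tumours they ran from -0.02 to 0.04. Only imiquimod 1 correlated best with the control of its own number (0.0353, against 0.0349 with control 4). Imiquimod 2, 3 and 4 correlated best with controls 1, 2 and 3 (0.0713, 0.0746 and 0.1686). With the replicate block 0 members were lower (Psmg2, adjusted p = 0.0503). Psmb10 and Psme1 stayed called in that limma fit (adjusted p = 0.0147 and 0.0308). Psmb8 and Psmb9 did not pass (adjusted p = 0.129 each), with unadjusted p of 0.0143 each, against 0.0663 and 0.0723 without the block. Psme2b passed with array weights (adjusted p = 0.0431). Among the 18 uncalled members recomputed under the alternatives, the log2 fold changes of 3 changed sign: Psmb7 (-0.10) was 0.0471 with the mean of kept probes, Psmb6 was -0.0229 without control 3 (at most 0.06 with another tumour left out), and Psmc3ip was 0.0492 without imiquimod 2 (down to -0.116 without control 3). Small uncalled values also moved by over 1.5 times with 1 tumour left out: Psmd14 was -0.14 without imiquimod 2, Psme2 0.0072 without imiquimod 1, Psmg3 -0.0972 without control 2, and Psmf1 -0.0736 and Psmb5 -0.0617 without control 1. The causes were not tested. Psmb10 minus Psmb7 ranged from 1.20 to 1.57, Psmb8 minus Psmb5 from 0.66 to 1.23 and Psmb9 minus Psmb6 from 0.58 to 1.35 over 13 alternatives. The number of arrays and the compression of dim signals limit what could be detected.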

Other observations

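The site of NFE2L1, TGACNNNGC, was also searched on both strands of the promoter windows. It was found in 6 of 40 members (15%) and in 16.2% of tested genes with a window. It was in 5 of 27 genes listed as constitutive core and regulatory subunits, the chaperone Psmd9 among the 5, and in 0 of the 5 interferon-induced ones. In the Psmb5 and Psmb6 windows its first base lay at -47 and -9 from the start.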
